A study of Homo sapiens with 6 samples.

Results

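SAS is an established cell line from a human oral squamous cell carcinoma, and its transcriptome was compared between cells grown in HPLM and cells grown in DMEM. The comparison takes 2 of the 6 libraries of the study, SAS HPLM and SAS DMEM, chosen by the line and medium in their labels, and covers 27852 gene symbols. The other 4 libraries hold HSC3 and HSC4, further human oral cancer lines, each in HPLM and in DMEM, and serve here as background for what differed in SAS. HPLM, human plasma-like medium, is a culture medium composed to resemble the salts and small metabolites of human plasma, and DMEM is a standard culture medium that was not made to resemble blood. Every culture, in both media, received heat-inactivated fetal bovine serum and an antibiotic-antimycotic mix and was kept in a humidified CO2 incubator. How long cells stayed in a medium is not given in the sources used here, and each line is a single established line. Polyadenylated RNA was sequenced from strand-specific libraries on a DNA nanoball platform. The column taken for SAS DMEM names the line but not its medium and ends in characters whose meaning is not given in the labels.

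Squamous epithelial cells carry keratins and the transcription factor p63, attach to their basement membrane through laminin-binding integrins, and answer injury or microbial products through NF-kB, a transcription factor that induces chemokines, cytokines and acute-phase proteins. Cell tension and TGF-beta act through YAP and TEAD and through SMAD proteins on genes of matrix and cytoskeleton. Cells short of sterol process SREBP factors, which raise genes of cholesterol and fatty acid synthesis, and the supply of glucose and amino acids is read by MondoA and ATF4.

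The deposited values were estimated counts corrected for transcript length, which summed to 20123287 in SAS HPLM and 18750890 in SAS DMEM and to between 17715962 and 20171750 over all 6 libraries. They are given as CPM, each gene's count as a share of the library's total, scaled to a common size, so levels can be compared between genes per length. A log2 ratio is that of HPLM over DMEM after 0.1 CPM was added to each. There was 1 library per line and medium, so a ratio in SAS has no replicate check and no test. Genes were counted at a mean of 1 CPM or more over the 2 SAS libraries. A gene under 1 CPM in 1 of them passes only if the other is higher, so the direction of its ratio is fixed by this minimum. Of the genes given below, IVL, BIRC3, PTGS2, S100A8 and KRT16 are examples. The shares of all genes were counted with the same minimum. In bulk RNA, fewer cells that express a gene and less of its RNA per cell cannot be told apart.

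The line's label was checked against markers of squamous epithelium: all 10 lay at a mean of 1 CPM or more in SAS, with a summed level of 1444 CPM in SAS HPLM and 2018 CPM in SAS DMEM. Summed levels of the marker lists of other cell types were low. Fibroblast markers came to 3.15 CPM in SAS HPLM and 1.98 CPM in SAS DMEM, with COL3A1 and LUM at 0 in both, and leukocyte markers to 3.02 CPM in SAS HPLM and 2.88 CPM in SAS DMEM, with CD3E and MS4A1 at 0. Endothelial markers came to 2.30 CPM in SAS HPLM and 0.53 CPM in SAS DMEM, of which CDH5 made up 2.02 CPM in SAS HPLM and 0.335 CPM in SAS DMEM, with KDR at 0. Muscle markers stayed under 0.2 CPM and neural markers came to 0.72 CPM in SAS HPLM and 1.70 CPM in SAS DMEM. Genes of mitochondrial DNA took 14.2% of the SAS HPLM library and 12.3% of the SAS DMEM library, and the 10 most abundant genes 13.9% of SAS HPLM and 11.9% of SAS DMEM.

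Named genes are the 12 highest and 12 lowest ratios, the widest members of each list and the smallest p between lines, as set out in the methods; other list members given here were chosen after their values were seen. Strand was kept in the libraries, but whether it was used in quantification is not given in the sources used here, so genes that overlap on opposite strands are uncertain.

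The comparison asked which genes differ in level when SAS cells grow in HPLM in place of DMEM. Most genes lay close together in the 2 libraries. At a mean of 5 CPM or more, the protein-coding genes with the highest ratios were CXCL8, CCL20, CXCL1 and SAA2. SAA2 is an acute-phase gene and the others encode chemokines. Those with the lowest ratios were ALPP, MMP1, JAGN1, TEN1 and SCD. Of 12022 genes counted, 86.9% differed by less than 1.5-fold. At 2-fold or more, 314 genes (2.61%) were higher in HPLM and 234 (1.95%) were lower. Ratios above 0 were found for 4682 genes (38.9%) and ratios below 0 for 7340 (61.1%), with a median log2 ratio of −0.08. With TMM scaling the median was −0.01, so these 2 shares depend on the scaling.

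The width of the ratios depended on level. At a mean of 1 to 5 CPM, 15.2% of genes were past 2-fold in either direction, against 2.96% at 5 to 20 CPM, 0.728% at 20 to 100 CPM and 0.478% at 100 CPM or more. Of the genes past 2-fold, 90 higher and 60 lower ones had a mean of 5 CPM or more, and 24 higher and 13 lower ones were listed at 0 in 1 of the SAS libraries. By transcript length, genes were split into 4 groups of 3004, and the median ratio was 0.01 in the group with the shortest transcripts and −0.09, −0.11 and −0.13 in the next 3, toward longer ones. The part of level and length in the results below was not tested.

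**Figure D1:**
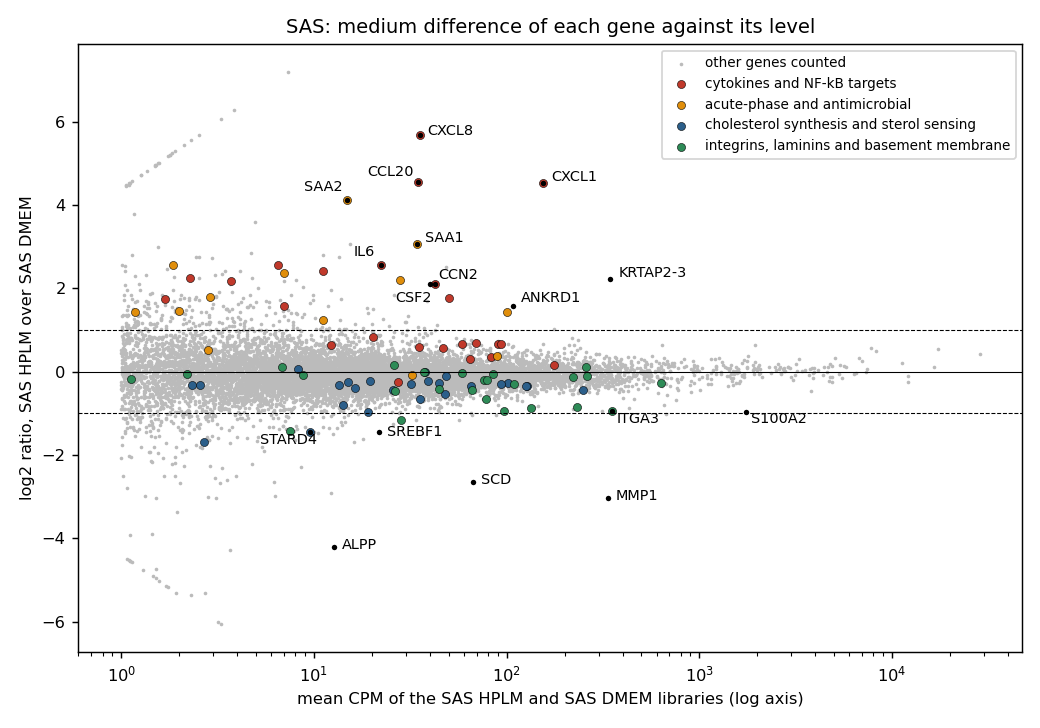
Log2 ratio of SAS HPLM over SAS DMEM (y axis) against the mean CPM of both libraries (x axis, log scale) for the 12022 genes counted; each point is a gene, coloured points are members of 4 lists, and dashed lines mark 2-fold. CXCL8, CCL20 and CXCL1 lie highest among genes above 5 CPM that carry names, MMP1 and ALPP lowest, and the grey diagonals at the left are genes listed at 0 in 1 library.

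Chemokines held the 3 highest ratios among protein-coding genes with a mean of 5 CPM or more. CXCL8 encodes interleukin-8, which attracts neutrophils, and had 69.5 CPM in SAS HPLM and 1.26 CPM in SAS DMEM, a 55-fold difference (log2 ratio 5.67). CCL20, a chemokine for dendritic cells and lymphocytes, had 66.4 CPM in SAS HPLM and 2.75 CPM in SAS DMEM (4.54). CXCL1, another neutrophil chemokine, had 297 CPM in SAS HPLM and 12.8 CPM in SAS DMEM (4.53). For each of the 3, the SAS HPLM library was the high one and the SAS DMEM library the low one. These chemokine genes hold the 3 highest ratios, and IL6 is among the 12 highest. Their upstream bases are shown because each window holds the letters GGNNTTTCC, a form of the NF-kB motif, here in capitals, on either strand. Each runs 5′ to 3′ over 250 bases before the RefSeq start (GRCh38.p14), at chr4:73740319-73740568, chr2:227813592-227813841, chr4:73869143-73869392 and chr7:22726950-22727199, all on the plus strand.
CXCL8: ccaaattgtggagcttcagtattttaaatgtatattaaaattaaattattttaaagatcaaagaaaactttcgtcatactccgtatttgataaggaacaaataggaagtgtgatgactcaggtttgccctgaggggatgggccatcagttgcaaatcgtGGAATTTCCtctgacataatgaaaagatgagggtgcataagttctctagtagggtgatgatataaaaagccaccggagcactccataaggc
CCL20: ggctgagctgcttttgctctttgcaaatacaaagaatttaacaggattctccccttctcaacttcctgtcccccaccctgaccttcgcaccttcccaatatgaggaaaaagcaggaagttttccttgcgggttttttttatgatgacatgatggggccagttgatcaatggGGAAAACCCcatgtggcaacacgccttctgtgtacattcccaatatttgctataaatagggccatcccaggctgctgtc
CXCL1: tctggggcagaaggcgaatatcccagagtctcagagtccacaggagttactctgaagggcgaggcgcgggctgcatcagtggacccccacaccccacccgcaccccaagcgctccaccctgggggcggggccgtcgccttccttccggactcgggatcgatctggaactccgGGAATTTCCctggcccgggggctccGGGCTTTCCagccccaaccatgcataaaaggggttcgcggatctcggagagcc
IL6: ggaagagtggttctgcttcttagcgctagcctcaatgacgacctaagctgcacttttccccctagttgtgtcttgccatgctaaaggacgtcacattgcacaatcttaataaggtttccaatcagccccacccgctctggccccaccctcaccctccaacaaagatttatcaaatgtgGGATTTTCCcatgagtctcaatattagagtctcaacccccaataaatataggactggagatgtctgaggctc
The match begins 91 bases before the start in CXCL8, 79 in CCL20 and 72 in IL6, and CXCL1 has 2 matches, at 78 and 53. Among the 30 genes of the cytokine and NF-kB list, 9 of the 11 that were 2-fold higher and had a promoter in the RefSeq table held these letters, and 4 of the 9 counted in SAS and not 2-fold higher did. The letters were in 5.48% of all 27305 promoter windows and in 5.92% of the 9474 windows of genes counted in SAS. They were in 9.13% of the windows of the 314 genes that were 2-fold higher (19 of 208 with a window). Of these 19 genes, 9 are the list members just given. The list was picked for NF-kB targets with earlier results of these data known. A high share with these letters was thus favoured in advance and is no separate support. Among the 234 that were 2-fold lower, the letters were in 2.5% of windows (4 of 160). A match describes letters and is not a measured site.

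Of the list of cytokines and NF-kB targets, most members were higher in HPLM. Of its 30 genes, 24 were counted in SAS and 6 lay under the minimum (CXCL5, CXCL6, CCL2, IL36G, TNF and IL23A). Of the 24, 23 had a ratio above 0 and 12 were 2-fold higher, beside 38.9% and 2.61% of all genes counted, and the median ratio was 1.20, beside −0.08. At a mean of 5 CPM or more the list's median was 0.70. IL6, a cytokine of the acute-phase response, had 38.2 CPM in SAS HPLM and 6.38 CPM in SAS DMEM (2.56). CSF3, the granulocyte growth factor, had 11.2 CPM in SAS HPLM and 1.82 CPM in SAS DMEM (2.55), and CSF2, which acts on granulocytes and macrophages, had 69.0 CPM in SAS HPLM and 16.1 CPM in SAS DMEM (2.09). The chemokines CXCL2 and CXCL3 were also 2-fold higher, with 18.8 CPM in SAS HPLM and 3.44 CPM in SAS DMEM for CXCL2 and 6.18 CPM in SAS HPLM and 1.28 CPM in SAS DMEM for CXCL3. CXCL1, CXCL2 and CXCL3 are close paralogs, so the split of reads among them is uncertain.

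Genes that regulate NF-kB signalling itself had lower ratios than CXCL8, CCL20 and CXCL1. TNFAIP3, which encodes the inhibitor A20, had 77.7 CPM in SAS HPLM and 22.8 CPM in SAS DMEM (1.76). NFKBIZ, an atypical IkB protein, had 10.5 CPM in SAS HPLM and 3.45 CPM in SAS DMEM (1.57), and BIRC3, an inhibitor of apoptosis, had 3.84 CPM in SAS HPLM and 0.732 CPM in SAS DMEM (2.24). NFKBIA, the gene of IkB-alpha, had 85.7 CPM in SAS HPLM and 52.8 CPM in SAS DMEM (0.70), TNIP1 had 0.68, RELB 0.64 and NFKB2 0.58. NFKB1, the gene of the p105 precursor, was the 1 member below 0, with 24.9 CPM in SAS HPLM and 29.8 CPM in SAS DMEM (−0.26). Within the list the ratios ran from −0.26 to 5.67. IER3, an early response gene, was among the members with the highest level in DMEM and differed little, with 185 CPM in SAS HPLM and 167 CPM in SAS DMEM (0.15).

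In HSC3 the same 24 genes had a median log2 ratio of 1.11 and in HSC4 of 0.17. CXCL8 stood at 521 CPM in HSC3 HPLM and 41.1 CPM in HSC3 DMEM (3.66), and at 205 CPM in HSC4 HPLM and 142 CPM in HSC4 DMEM (0.53). In SAS HPLM the CXCL8 level was thus below that of both HSC4 libraries, although its ratio was the widest of the 3 lines. CXCL1 had ratios of 3.59 in HSC3 and 0.90 in HSC4, and CCL20 3.55 and 0.63. For CSF2 the ratios in the other lines were 0.57 and 0.36, and for PTGS2, the inducible cyclooxygenase gene, 0.10 and 0.55 beside 1.75 in SAS, at a low 2.66 CPM in SAS HPLM and 0.721 CPM in SAS DMEM.

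Acute-phase and antimicrobial genes had the highest median of the lists, 1.45 over the 13 of 18 members counted in SAS. That rank depended on the settings. With TMM the cytokine list was higher, at 1.65 against 1.52, and with DESeq2 size factors at 1.63 against 1.51. Scaling with TMM moved the median of all genes by only 0.07. More genes then passed the minimum, 12086 against 12022, so the set of members counted can differ. At a mean of 5 CPM or more the acute-phase median was 1.82 and the cytokine median 0.70. Of the 13 members, 12 had a ratio above 0 and 10 were 2-fold higher, beside 38.9% and 2.61% of all genes. SAA1 and SAA2 encode serum amyloid A proteins and are near-identical neighbours on chromosome 11. SAA1 had 61.0 CPM in SAS HPLM and 7.26 CPM in SAS DMEM (3.05), and SAA2 had 28.2 CPM in SAS HPLM and 1.52 CPM in SAS DMEM (4.13). C3, the central complement component, had 46.1 CPM in SAS HPLM and 9.98 CPM in SAS DMEM (2.20). S100A9, a calprotectin subunit, had 148 CPM in SAS HPLM and 54.3 CPM in SAS DMEM (1.44), and its partner S100A8, much lower, had 3.27 CPM in SAS HPLM and 0.469 CPM in SAS DMEM (2.56). PI3, which encodes the protease inhibitor elafin, had 11.8 CPM in SAS HPLM and 2.19 CPM in SAS DMEM (2.37). The exception was SLPI, a related inhibitor, at 31.5 CPM in SAS HPLM and 33.4 CPM in SAS DMEM (−0.08). Over the same 13 genes the median was 2.0 in HSC3 and 1.28 in HSC4.

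**Figure D2:**
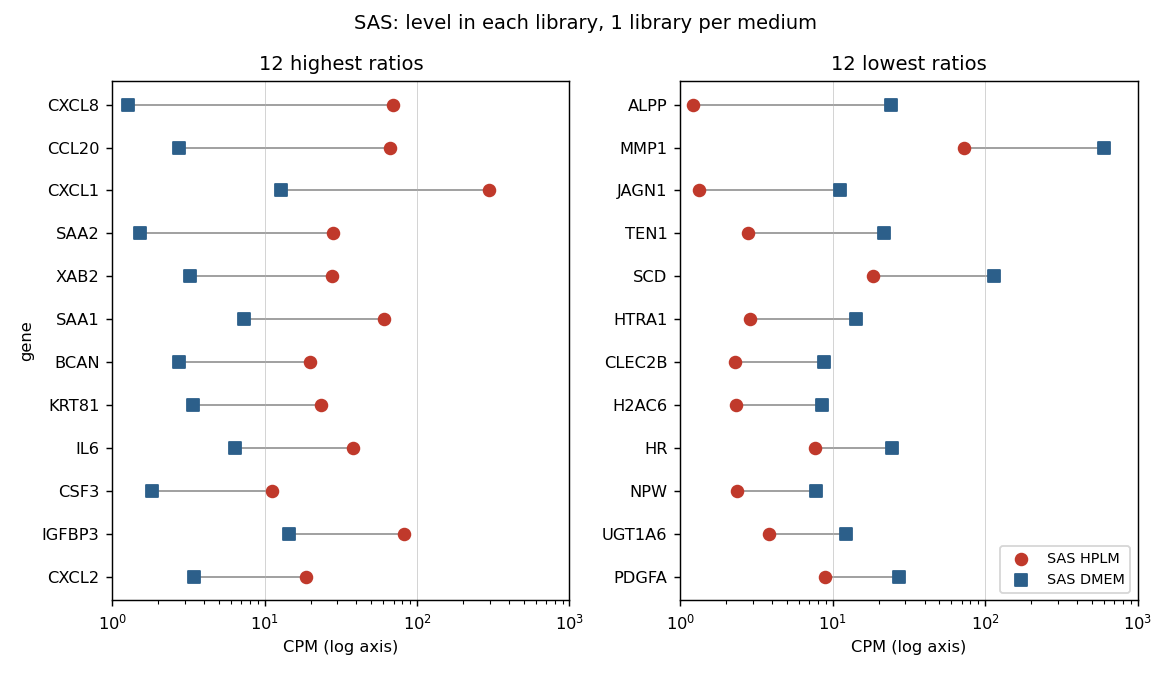
CPM (x axis, log scale) in SAS HPLM (circles) and SAS DMEM (squares) of the 12 protein-coding genes with the highest (left) and the 12 with the lowest (right) SAS ratio at a mean of 5 CPM or more; each symbol is 1 library. CXCL1 reaches 297 CPM in SAS HPLM against 12.8 CPM in SAS DMEM, and MMP1 has 72.8 CPM in SAS HPLM against 600 CPM in SAS DMEM.

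The other genes among the 12 highest were of mixed function. XAB2, a splicing and DNA repair factor, had 27.5 CPM in SAS HPLM and 3.22 CPM in SAS DMEM (3.06), with ENST00000358368 carrying the difference at 26.9 CPM in SAS HPLM and 2.31 CPM in SAS DMEM. IGFBP3, which binds insulin-like growth factors in plasma, had 82.2 CPM in SAS HPLM and 14.4 CPM in SAS DMEM (2.51). KRT81, a hair keratin, had 23.5 CPM in SAS HPLM and 3.39 CPM in SAS DMEM (2.76), and BCAN, which encodes the proteoglycan brevican, had 19.7 CPM in SAS HPLM and 2.72 CPM in SAS DMEM (2.81). XAB2 and IGFBP3 were higher in HPLM in the other lines too, with ratios of 2.48 in HSC3 and 2.89 in HSC4 for XAB2 and 1.48 and 1.78 for IGFBP3. For KRT81 these ratios were −0.67 and 2.04, and for BCAN 0.61 and 1.00. The hair keratin-associated gene KRTAP2-3, chosen after its values were seen, had 569 CPM in SAS HPLM and 122 CPM in SAS DMEM (2.22), and its levels in the other lines were at most 6.55 CPM.

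Genes of keratinocyte differentiation were mostly too low to count: 21 of 30 lay under the minimum, among them KRT1, KRT4, KRT13 and FLG. The 9 counted all had a ratio above 0, 6 of them 2-fold higher, beside 38.9% and 2.61% of all genes, with a median of 1.19 in SAS (0.65 at a mean of 5 CPM or more), 0.41 in HSC3 and 0.84 in HSC4. GRHL3, a transcription factor of barrier formation, had 7.91 CPM in SAS HPLM and 1.59 CPM in SAS DMEM (2.25). KRT80 had 42.1 CPM in SAS HPLM and 18.4 CPM in SAS DMEM (1.19), and IVL, the gene of the envelope protein involucrin, 2.32 CPM in SAS HPLM and 0.382 CPM in SAS DMEM (2.33). IVL passed the minimum through SAS HPLM alone, so its ratio above 0 was fixed by that filter. The tight junction genes CLDN7 and CLDN4 were named as the 2 widest members of another list, that of mesenchymal transition. That list pools epithelial genes such as these with mesenchymal genes such as VIM. Its sign counts and median therefore describe neither kind alone. CLDN7 had 32.4 CPM in SAS HPLM and 13.3 CPM in SAS DMEM (1.28), and CLDN4 33.4 CPM in SAS HPLM and 15.5 CPM in SAS DMEM (1.1). Of the 19 members counted of that list, 9 had a ratio above 0 and 10 below 0, with a median of −0.09. These 2 were its only members 2-fold higher, beside 2.61% of all genes.

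Of the 10 basal and stress keratins counted, 7 had a ratio below 0, close to the 61.1% of all genes, with a median of −0.12, 0 members 2-fold lower and 1, KRT16, 2-fold higher at 1.70 CPM in SAS HPLM and 0.725 CPM in SAS DMEM (1.12). KRT5, the keratin of basal cells, had 479 CPM in SAS HPLM and 835 CPM in SAS DMEM (−0.80), KRT17 had 315 CPM in SAS HPLM and 492 CPM in SAS DMEM (−0.64), and KRT14 had 154 CPM in SAS HPLM and 203 CPM in SAS DMEM (−0.40). KRT6A had 7.71 CPM in SAS HPLM and 13.0 CPM in SAS DMEM. The whole list summed to 4726 CPM in SAS HPLM and 5424 CPM in SAS DMEM. Most of that level came from other members, so the list's median does not stand for KRT5, KRT17, KRT14 and KRT6A. The keratins of simple epithelia differed little, with 963 CPM in SAS HPLM and 951 CPM in SAS DMEM for KRT18 and 983 CPM in SAS HPLM and 1071 CPM in SAS DMEM for KRT8. Of the 13 squamous lineage factors counted, 11 had a ratio below 0, beside 61.1% of all genes, with a median of −0.21 and none past 2-fold. TP63 had 33.4 CPM in SAS HPLM and 48.6 CPM in SAS DMEM (−0.54), and KLF5, a factor of proliferating epithelium, 29.6 CPM in SAS HPLM and 54.4 CPM in SAS DMEM (−0.88). S100A2, a calcium-binding protein of basal keratinocytes, had 1176 CPM in SAS HPLM and 2313 CPM in SAS DMEM (−0.98), with ratios of 0.53 in HSC3 and 0.15 in HSC4.

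Most genes that fix epithelium to its matrix were lower. Of the 25 integrin, laminin and basement membrane genes, all counted, 21 had a ratio below 0 and 2 were 2-fold lower, beside 61.1% and 1.95% of all genes, with a median of −0.20 (−0.13 with TMM scaling). The lowest was COL12A1, a fibril-associated collagen, with 4.03 CPM in SAS HPLM and 11 CPM in SAS DMEM (−1.43). COL17A1, a transmembrane collagen of basal cells, had 17.5 CPM in SAS HPLM and 39.5 CPM in SAS DMEM (−1.17). ITGA6 had 66.2 CPM in SAS HPLM and 127 CPM in SAS DMEM (−0.93) and ITGB4 95.1 CPM in SAS HPLM and 174 CPM in SAS DMEM (−0.87). The laminin chain gene LAMA3 had 60.7 CPM in SAS HPLM and 96.2 CPM in SAS DMEM (−0.66), and LAMB3 had 253 CPM in SAS HPLM and 272 CPM in SAS DMEM (−0.10). ITGA3, part of another laminin receptor, had 241 CPM in SAS HPLM and 462 CPM in SAS DMEM (−0.94). The ratio of ITGA6 was 0.06 in HSC3 and −0.02 in HSC4, and that of ITGB4 was −0.24 in HSC3 and −0.29 in HSC4.

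MMP1, which encodes interstitial collagenase, had the lowest ratio after ALPP among protein-coding genes with a mean of 5 CPM or more. MMP1 had 72.8 CPM in SAS HPLM and 600 CPM in SAS DMEM, 8.25-fold lower (−3.04), against 95 CPM in HSC3 HPLM and 71.6 CPM in HSC3 DMEM (0.41) and 48.9 CPM in HSC4 HPLM and 63.4 CPM in HSC4 DMEM (−0.38). SAS DMEM was the library that stood apart, and the SAS HPLM level lay within the range of the other lines. Of the 17 matrix proteases and inhibitors counted, 11 had a ratio below 0, close to the 61.1% of all genes, with a median of −0.34 in SAS, −0.05 in HSC3 and −0.14 in HSC4. MMP3, the neighbouring stromelysin gene, had 1.95 CPM in SAS HPLM and 5.32 CPM in SAS DMEM (−1.40), MMP14, a membrane protease, had 105 CPM in SAS HPLM and 185 CPM in SAS DMEM (−0.82), and MMP2, which it activates, had 20.6 CPM in SAS HPLM and 36.5 CPM in SAS DMEM (−0.82). On the other side, the inhibitor gene SERPINB7 had 8.26 CPM in SAS HPLM and 1.98 CPM in SAS DMEM (2.0), and the urokinase gene PLAU had 244 CPM in SAS HPLM and 192 CPM in SAS DMEM (0.35).

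Targets of YAP and TGF-beta were split. Of 21 counted, 14 had a ratio above 0 and 4 were 2-fold higher, beside 38.9% and 2.61% of all genes. The median was 0.14 in SAS (0.03 at a mean of 5 CPM or more, 0.22 with TMM scaling) and −0.04 in each of the other lines. CCN2, a matricellular growth factor, had 65.2 CPM in SAS HPLM and 15 CPM in SAS DMEM (2.11), and ANKRD1, an ankyrin-repeat protein of stretched cells, had 161 CPM in SAS HPLM and 54.2 CPM in SAS DMEM (1.57). CCN1, of the same protein family as CCN2, had 644 CPM in SAS HPLM and 494 CPM in SAS DMEM (0.38). TGFBI had 578 CPM in SAS HPLM and 932 CPM in SAS DMEM (−0.69) and F3, the tissue factor gene, 549 CPM in SAS HPLM and 807 CPM in SAS DMEM (−0.55). The windows before CCN2 and ANKRD1 are shown because both hold the letters GGAATG, the core of the TEAD motif, in capitals. They lie on the minus strand at chr6:131951373-131951622 and chr10:90921088-90921337 (RefSeq, GRCh38.p14).
CCN2: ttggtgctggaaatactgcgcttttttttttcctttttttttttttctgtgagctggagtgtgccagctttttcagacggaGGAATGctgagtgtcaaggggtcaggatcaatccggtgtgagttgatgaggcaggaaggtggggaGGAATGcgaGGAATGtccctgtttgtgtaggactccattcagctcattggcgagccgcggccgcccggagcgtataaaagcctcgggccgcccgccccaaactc
ANKRD1: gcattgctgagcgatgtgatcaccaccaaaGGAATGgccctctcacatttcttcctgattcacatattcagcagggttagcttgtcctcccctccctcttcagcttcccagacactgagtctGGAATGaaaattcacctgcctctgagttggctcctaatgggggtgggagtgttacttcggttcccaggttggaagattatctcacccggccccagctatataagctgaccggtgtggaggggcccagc
CCN2 has 3 matches, beginning 169, 104 and 95 bases before the start, and ANKRD1 has 2, at 220 and 128. On either strand these letters were in 11.9% of all windows and in 9.36% of the windows of genes counted in SAS. They were in 11.5% of those of 2-fold higher genes and in 14.4% of those of 2-fold lower genes.

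Sterol synthesis genes were lower with 1 exception, HSD17B7. Of the 25 cholesterol synthesis and sterol-sensing genes counted, 24 had a ratio below 0 and 2 were 2-fold lower, beside 61.1% and 1.95% of all genes. The median was −0.33 in SAS, 0.08 in HSC3 and −0.25 in HSC4. The lowest was MYLIP, which is not a synthesis gene, with 1.21 CPM in SAS HPLM and 4.16 CPM in SAS DMEM (−1.70), and with −0.67 in HSC3 and −0.93 in HSC4. STARD4, a sterol carrier, had 5.08 CPM in SAS HPLM and 14 CPM in SAS DMEM (−1.44), LSS, the lanosterol synthase, had 12.9 CPM in SAS HPLM and 25.4 CPM in SAS DMEM (−0.97), and INSIG1, which holds SREBP precursors in the endoplasmic reticulum, had 10.3 CPM in SAS HPLM and 17.9 CPM in SAS DMEM (−0.79).

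SREBF1, the gene of the SREBP1 factors, had 11.7 CPM in SAS HPLM and 32.0 CPM in SAS DMEM (−1.45), with ratios of −0.20 in HSC3 and 0.08 in HSC4. SCD, the stearoyl-CoA desaturase that makes monounsaturated fatty acids, had 18.3 CPM in SAS HPLM and 115 CPM in SAS DMEM (−2.64), and it was lower in HPLM in HSC3 (−2.34) and HSC4 (−1.16) too. FASN, the fatty acid synthase, had 110 CPM in SAS HPLM and 154 CPM in SAS DMEM (−0.48), whereas SCD5, a second desaturase, had 21.0 CPM in SAS HPLM and 10.7 CPM in SAS DMEM (0.97). Over the 16 members counted of the fatty acid list, 11 had a ratio below 0, beside 61.1% of all genes, with a median of −0.18.

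**Figure D3:**
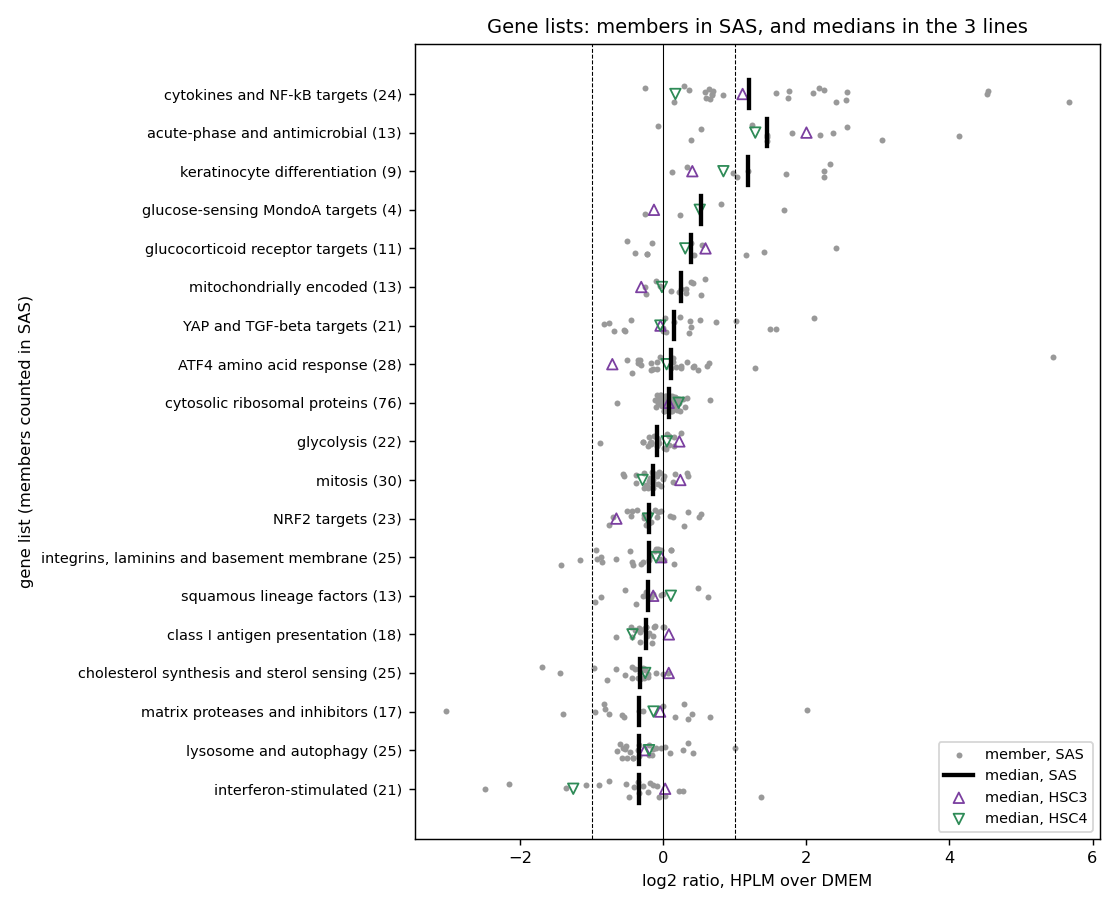
Log2 ratio of HPLM over DMEM (x axis) of the members of 19 gene lists in SAS (grey points; the number counted is in brackets), with the list's median in SAS (black bar), HSC3 (upward triangle) and HSC4 (downward triangle); dashed lines mark 2-fold. The 3 lists at the top have SAS medians of 1.20, 1.45 and 1.19, and the point beyond 5 in the ATF4 list is CHAC1, listed at 0 in SAS DMEM.

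Of 4 MondoA targets counted, 3 had a ratio above 0 and 1 was 2-fold higher, beside 38.9% and 2.61% of all genes. The median was 0.52 in SAS (0.23 at a mean of 5 CPM or more), −0.13 in HSC3 and 0.51 in HSC4. With TMM scaling the SAS median was 0.88, although TMM moved the median of all genes by only 0.07. More genes pass the minimum with TMM, and ARRDC3 lay just under it without TMM, at a mean of 0.9987 CPM. The value of 0.88 is therefore not a stronger difference by scaling alone. TXNIP, the arrestin-family gene that MondoA induces when glucose is high, had 6.47 CPM in SAS HPLM and 1.95 CPM in SAS DMEM (1.68), with −0.36 in HSC3 and 0.70 in HSC4. Its relatives ARRDC4 and ARRDC3 were higher as well: ARRDC4 had 3.05 CPM in SAS HPLM and 1.70 CPM in SAS DMEM (0.81), and ARRDC3, under the minimum, had 1.48 CPM in SAS HPLM and 0.520 CPM in SAS DMEM (1.35). Of 22 glycolysis genes, 14 had a ratio below 0, close to the 61.1% of all genes, with a median of −0.08, and HK2, a hexokinase, had 17.6 CPM in SAS HPLM and 21.3 CPM in SAS DMEM. The HSC3 and HSC4 medians of that list were 0.22 and 0.05.

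The ATF4 amino acid response list had a median of 0.11 over 28 members in SAS (−0.07 at a mean of 5 CPM or more), −0.71 in HSC3 and 0.05 in HSC4. ASNS, the asparagine synthetase, had 89.5 CPM in SAS HPLM and 57.4 CPM in SAS DMEM (0.64), while in HSC3 it had 13.9 CPM in HPLM and 105 CPM in DMEM (−2.91). ATF4 had 344 CPM in SAS HPLM and 259 CPM in SAS DMEM (0.41) and its target TRIB3 37.0 CPM in SAS HPLM and 29.3 CPM in SAS DMEM (0.34). The transporter genes of the list ran the other way, SLC7A5 with 505 CPM in SAS HPLM and 718 CPM in SAS DMEM (−0.51) and SLC7A11 with 7.04 CPM in SAS HPLM and 9.55 CPM in SAS DMEM (−0.43). CHAC1, a glutathione-degrading enzyme, had 4.26 CPM in SAS HPLM and was listed at 0 in SAS DMEM, and the taurine transporter gene SLC6A6 had 6.61 CPM in SAS HPLM and was likewise listed at 0 in SAS DMEM. Such a 0 can be a failed estimate, so no fold is given for them.

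Interferon-stimulated genes were lower in part: 17 of 21 counted had a ratio below 0, with 4 of them 2-fold lower and 1, IRF7, 2-fold higher, beside 61.1%, 1.95% and 2.61% of all genes. The median was −0.35 in SAS, 0.03 in HSC3 and −1.26 in HSC4. IFIT1, which binds foreign RNA, had 3.98 CPM in SAS HPLM and 10.4 CPM in SAS DMEM (−1.37), IFIT3 4.68 CPM in SAS HPLM and 10.1 CPM in SAS DMEM (−1.09) and IFI44 1.12 CPM in SAS HPLM and 6.76 CPM in SAS DMEM (−2.49). Of 18 class I antigen presentation genes, 17 had a ratio below 0, beside 61.1% of all genes, and 0 were past 2-fold, with a median of −0.24. Lysosomal genes had a median of −0.34 over 25, and CTSD, a lysosomal protease, had 77.9 CPM in SAS HPLM and 118 CPM in SAS DMEM (−0.60), whereas WIPI1, an autophagy factor, had 7.59 CPM in SAS HPLM and 3.73 CPM in SAS DMEM (1.00).

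Genes of mitochondrial DNA differed upward in SAS, with a ratio above 0 for 9 of 13, beside 38.9% of all genes. Their median was 0.25, beside −0.31 in HSC3 and −0.02 in HSC4. MT-ND1, a complex I subunit, had 9271 CPM in SAS HPLM and 6215 CPM in SAS DMEM (0.58), and MT-ATP6, a subunit of ATP synthase, had 4451 CPM in SAS HPLM and 5328 CPM in SAS DMEM (−0.26). Ribosomal protein genes had a ratio above 0 in 58 of 76, beside 38.9% of all genes, and a median of 0.08. Nuclear genes of oxidative phosphorylation had a median of 0.02. Cell-cycle lists lay close to all genes, with medians of −0.08 for 36 DNA replication genes and −0.14 for 30 mitosis genes, and none of these 66 past 2-fold. CDKN1A, the gene of the p21 inhibitor, had 53.3 CPM in SAS HPLM and 28.1 CPM in SAS DMEM (0.92). PLK1, a mitotic kinase, had 91.5 CPM in SAS HPLM and 135 CPM in SAS DMEM (−0.56).

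The next comparison asked whether the medium difference in SAS departs from that of HSC3 and HSC4. Among protein-coding genes with a mean of 5 CPM or more over all 6 libraries, ABHD4, ANKRD1, ADAM8 and CSF2 had the smallest p with SAS higher than the others, and MMP1 and EFNB1 with SAS lower. edgeR's quasi-likelihood test with Benjamini-Hochberg adjustment called 0 of 13236 genes (0.0%), so none of the differences between lines passed that test. At an unadjusted p under 0.05 it counted 619 genes (4.68%), 376 with SAS higher (2.84%) and 243 with SAS lower (1.84%). The spread in this test came from HSC3 against HSC4 alone, with 1 residual degree of freedom.

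MMP1 had a SAS-minus-others difference of −3.02 ± 0.34 on the log2 scale (SE; edgeR adjusted p = 0.458), and it was −2.65 without HSC3 and −3.38 without HSC4. ANKRD1 had 161 CPM in SAS HPLM and 54.2 CPM in SAS DMEM, against 4.81 CPM in HSC3 HPLM, 5.80 CPM in HSC3 DMEM, 34 CPM in HSC4 HPLM and 56.1 CPM in HSC4 DMEM, a difference of 2.15 ± 0.26 (adjusted p = 0.458). For CCN2, with 19.5 CPM in HSC3 HPLM, 21.5 CPM in HSC3 DMEM, 16.3 CPM in HSC4 HPLM and 11.2 CPM in HSC4 DMEM, it was 1.97 ± 0.35 (adjusted p = 0.75). Both genes were highest in SAS HPLM among all 6 libraries. ABHD4, a lipid hydrolase gene, had 26.8 CPM in SAS HPLM and 13.8 CPM in SAS DMEM (0.96) with −1.02 in HSC3 and −1.18 in HSC4, and its difference was 2.11 ± 0.23 (adjusted p = 0.458).

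DESeq2's Wald test called 5 genes: MMP1 (adjusted p = 5.77e-12), ANKRD1 (0.00338), ABHD4 (0.0204), S100A2 (0.0204) and TEN1 (0.0306), and limma-voom called 0. TEN1, a telomere-capping subunit, had 2.78 CPM in SAS HPLM and 21.7 CPM in SAS DMEM (−2.92), against 24.2 CPM in HSC3 HPLM, 27.6 CPM in HSC3 DMEM, 11.7 CPM in HSC4 HPLM and 2.4 CPM in HSC4 DMEM, with 1 transcript holding 97.6% of the SAS difference. The chemokines did not lead this test. For CXCL8 the difference was 3.72 ± 1.46 (edgeR adjusted p = 1.0), and it was 2.16 against HSC3 alone and 5.24 against HSC4 alone. Of the cytokine list, 7 of 29 genes tested had an unadjusted p under 0.05 with SAS higher, IL6 (1.98 ± 0.47) and CSF2 (1.68 ± 0.23) among them, and 1 with SAS lower, beside 2.84% and 1.84% of all genes tested.

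**Figure D4:**
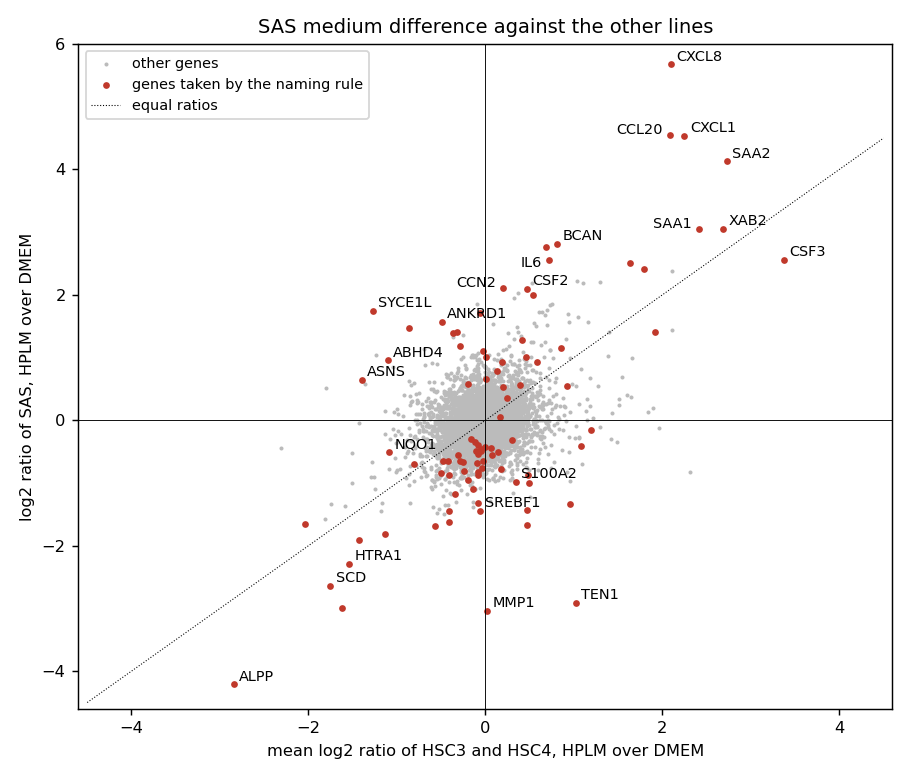
Log2 ratio of SAS (y axis) against the mean log2 ratio of HSC3 and HSC4 (x axis), all HPLM over DMEM, for 9269 protein-coding genes with a mean of 5 CPM or more in SAS; each point is a gene and the dotted line marks equal ratios. MMP1 lies at −3.04 in SAS near 0 on the x axis, and CXCL8, CCL20 and CXCL1 lie above the line with positive ratios in all 3 lines.

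The other genes with the smallest p, chosen by a rule, had adjusted p from 0.555 to 0.782. On the higher side, ADAM8, a membrane protease, had 5.31 CPM in SAS HPLM and 1.81 CPM in SAS DMEM (1.51) with −0.42 in HSC3 and −0.46 in HSC4, and GPR176, an orphan receptor, had 10.8 CPM in SAS HPLM and 4.70 CPM in SAS DMEM (1.19) with −0.31 and −0.27. ST6GALNAC5, a sialyltransferase, had 5.98 CPM in SAS HPLM and 1.32 CPM in SAS DMEM (2.10) with −0.59 and −0.54. On the lower side, EFNB1, the ephrin-B1 gene, had 14.6 CPM in SAS HPLM and 26.7 CPM in SAS DMEM (−0.87) with 0.52 in HSC3 and 0.44 in HSC4. PLTP, a lipid transfer protein, had 1.96 CPM in SAS HPLM and 3.37 CPM in SAS DMEM (−0.75) with 1.21 and 0.91, and LAPTM5, a lysosomal membrane protein, had −0.41 with 1.29 and 0.88. ZP3 had −0.15 in SAS and 1.19 in each of the other lines. GTF2H2, which has near-identical copies, had 0.130 CPM in SAS HPLM and 1.11 CPM in SAS DMEM, so its value is uncertain.

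Of the 88 protein-coding genes that were 2-fold higher in SAS at a mean of 5 CPM or more, 62 had the same sign in HSC3 and 65 in HSC4, or 70.5% and 73.9%, beside 51.3% and 40.5% of all 9269 such genes. In HSC3, 25 of the 88 were 2-fold higher, 28.4% of them and 25.8% of the 97 such genes of HSC3, where 1.05% of the 9269 genes were 2-fold higher. In HSC4 there were 17, which is 19.3% of the 88 and 20.2% of the 84 such genes of HSC4, where 0.906% of the 9269 genes were 2-fold higher. Of the 58 that were 2-fold lower in SAS, 51 had the same sign in HSC3 and 44 in HSC4, or 87.9% and 75.9%, beside 48.6% and 59.4%. A 2-fold lower level in HSC3 was found for 14 of the 58 (24.1%), or 13.9% of the 101 such genes of HSC3, where 1.09% of the 9269 genes were 2-fold lower. In HSC4 it was found for 9 (15.5%), or 15.3% of the 59 such genes of HSC4, where 0.637% of the 9269 genes were 2-fold lower. In both other lines 8 of the 88 and 5 of the 58 were past 2-fold in the same direction.

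Opposite signs in both other lines were found for 12 of the 88 and 2 of the 58. The 6 of the 12 with the widest SAS ratios were ANKRD1, SYCE1L, PYROXD2, CLTRN, ANKRD2 and DNAJC6. CLTRN, collectrin, a partner of amino acid transporters, had 10.2 CPM in SAS HPLM and 3.65 CPM in SAS DMEM (1.46) with −0.88 in HSC3 and −0.85 in HSC4. ANKRD2, a relative of ANKRD1, had 9.14 CPM in SAS HPLM and 3.37 CPM in SAS DMEM (1.41) with −0.30 and −0.35. SYCE1L had 21.4 CPM in SAS HPLM and 6.30 CPM in SAS DMEM (1.75), with 89.0% of the difference in a transcript of 213 bases, and PYROXD2 had 8.68 CPM in SAS HPLM and 2.59 CPM in SAS DMEM (1.71). The 2 on the lower side were NPW, the gene of neuropeptide W, with 2.36 CPM in SAS HPLM and 7.72 CPM in SAS DMEM (−1.67), and RGPD5, one of a family of near-identical copies, with 8.28 CPM in SAS HPLM and 16.7 CPM in SAS DMEM (−1.01).

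**Figure D5:**
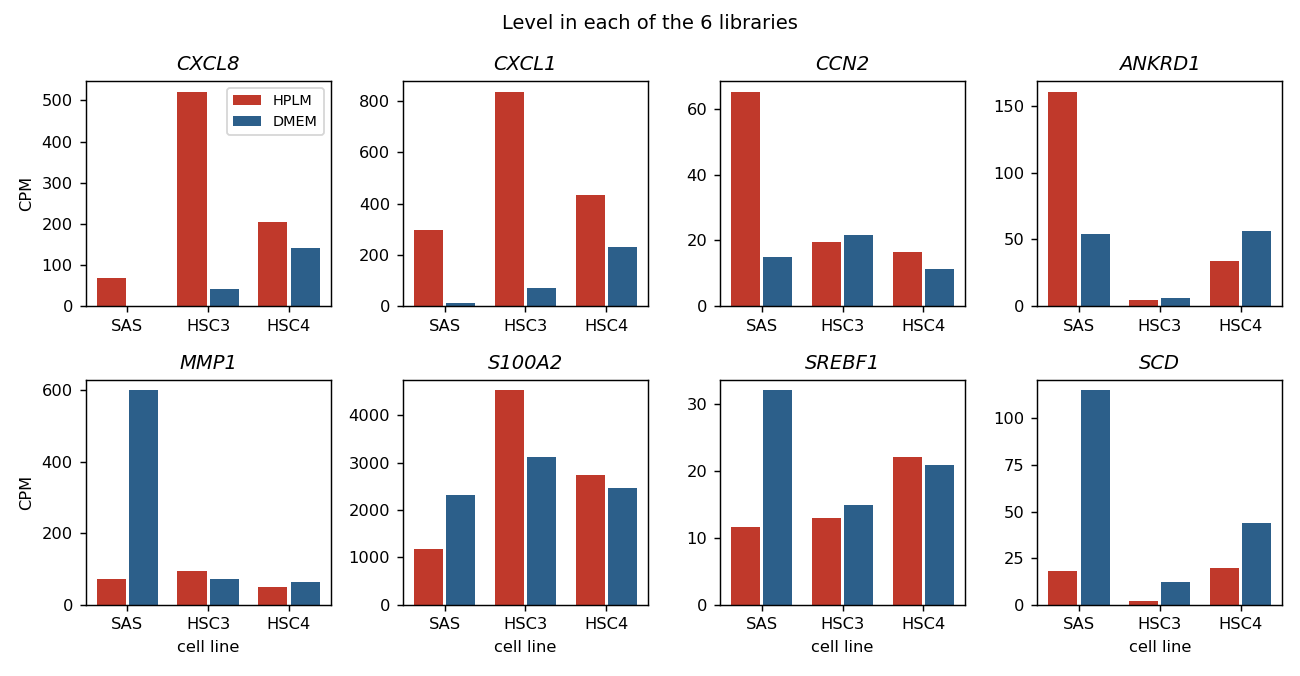
CPM (y axis, from 0) of 8 genes in each of the 6 libraries, with HPLM (red) left of DMEM (blue) in SAS, HSC3 and HSC4; each bar is 1 library. CCN2 and ANKRD1 are highest in SAS HPLM, MMP1 and SCD in SAS DMEM, and CXCL8 and CXCL1 in HSC3 HPLM.

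Some wide ratios rested on a single transcript. Of the 122 genes taken by the naming rule, 46 had 1 transcript that held 90% or more of the SAS difference. This count includes genes with only 1 transcript in the table, for which the share is 100% in advance. It also includes genes that differed little, such as CDH1 (0.05), so it does not describe wide ratios alone. CCN2, ANKRD1, MMP1, SCD and KRT81 have 1 transcript each in the table. CXCL8 had 87.1% of its difference in ENST00000307407, with all 3 of its transcripts higher in HPLM, and IL6 had 8 of 9 above 0 and all 8 higher. JAGN1, which had 1.32 CPM in SAS HPLM and 11.2 CPM in SAS DMEM (−2.99), is in the table with the single transcript ENST00000489724. The division of reads among transcripts is kallisto's estimate, so shares of a difference are uncertain.

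The remaining genes among the 12 lowest included ALPP, the placental alkaline phosphatase, with 1.21 CPM in SAS HPLM and 24.1 CPM in SAS DMEM (−4.21), and close paralogs share its reads. HTRA1, a secreted protease, had 2.84 CPM in SAS HPLM and 14.3 CPM in SAS DMEM (−2.29), CLEC2B, a lectin-like receptor ligand, 2.27 CPM in SAS HPLM and 8.77 CPM in SAS DMEM (−1.90), and the histone gene H2AC6 2.32 CPM in SAS HPLM and 8.44 CPM in SAS DMEM (−1.82). HR, a corepressor of hair follicle cells, had 7.62 CPM in SAS HPLM and 24.6 CPM in SAS DMEM (−1.68), and PDGFA, a growth factor for mesenchymal cells, 8.84 CPM in SAS HPLM and 27.3 CPM in SAS DMEM (−1.61). UGT1A6, which shares exons with its relatives, had 3.83 CPM in SAS HPLM and 12.2 CPM in SAS DMEM (−1.65). ALPP, CLEC2B, H2AC6, HTRA1, JAGN1 and UGT1A6 had ratios below 0 in both other lines as well, while HR and PDGFA were above 0 in HSC4.

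Receptor and ligand genes of growth signalling were few past 2-fold. EREG, the gene of epiregulin, had 4.59 CPM in SAS HPLM and 11.6 CPM in SAS DMEM (−1.32), and HBEGF, another EGF receptor ligand, 49.4 CPM in SAS HPLM and 26.0 CPM in SAS DMEM (0.92). IGFBP6 had 7.11 CPM in SAS HPLM and 15.3 CPM in SAS DMEM (−1.09). HSD11B1, which regenerates active glucocorticoid, had 27.8 CPM in SAS HPLM and 10.5 CPM in SAS DMEM (1.40) and lay under 1 CPM in all 4 libraries of the other lines, and ANGPTL4, an inhibitor of lipoprotein lipase, had 7.04 CPM in SAS HPLM and 1.24 CPM in SAS DMEM (2.41). DUSP1, a phosphatase of MAP kinases, had 27.5 CPM in SAS HPLM and 12.3 CPM in SAS DMEM (1.15). DUSP7, of the same family, went the other way, with 3.45 CPM in SAS HPLM and 8.83 CPM in SAS DMEM (−1.33). Of the 17 ERK feedback genes counted, which include both, 9 had a ratio above 0 and 8 below 0, with a median of 0.06. In that list 1 gene was 2-fold higher and 1 was 2-fold lower, beside 2.61% and 1.95% of all genes.

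Genes of oxidant and xenobiotic defence came next. The NRF2 list had a median of −0.20 over 23 members with 0 past 2-fold, beside −0.66 in HSC3 and −0.21 in HSC4, and 8 of 27 tested had an unadjusted p under 0.05 with SAS higher than the others, beside 2.84% of all genes tested. NQO1, a quinone reductase, had 244 CPM in SAS HPLM and 347 CPM in SAS DMEM (−0.51), with −1.16 in HSC3 and −1.01 in HSC4. The aryl hydrocarbon receptor list had the lowest SAS median of the 42 lists, −0.51, beside −0.63 in HSC3 and −0.97 in HSC4. Of its 8 members counted, 7 had a ratio below 0 and 1, UGT1A6, was 2-fold lower, beside 61.1% and 1.95% of all genes. TIPARP, which opposes the receptor, had 36.3 CPM in SAS HPLM and 52.1 CPM in SAS DMEM (−0.52). CYP1A1, the cytochrome that the aryl hydrocarbon receptor induces, had 1.02 CPM in SAS HPLM and 1.11 CPM in SAS DMEM, beside ratios of −3.47 in HSC3 and −2.46 in HSC4. VIM, the gene of vimentin, had 86.7 CPM in SAS HPLM and 139 CPM in SAS DMEM (−0.69). That was the lowest ratio among the 19 members counted of the mesenchymal transition list, which pools epithelial and mesenchymal genes and had a median of −0.09. CDH1, the gene of E-cadherin, had 63.7 CPM in SAS HPLM and 61.4 CPM in SAS DMEM (0.05).

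Of 11 glucocorticoid receptor targets counted, 6 had a ratio above 0 and 3 were 2-fold higher, beside 38.9% and 2.61% of all genes. Their median was 0.39 in SAS, 0.59 in HSC3 and 0.31 in HSC4. In the lists that follow, few members were past 2-fold. Of 26 hypoxia genes counted, 18 had a ratio above 0 and 2 were 2-fold higher, beside 38.9% and 2.61% of all genes, with a median of 0.15 (0.09 at a mean of 5 CPM or more). For p53 targets 14 of 23 were above 0 (median 0.17) and for PI3K and FOXO targets 9 of 12 (median 0.24), beside 38.9% of all genes. None of them was past 2-fold. At a mean of 5 CPM or more these medians were 0.05 and 0.11. Purine and pyrimidine synthesis genes were below 0 in 18 of 24, beside 61.1% of all genes, with a median of −0.19, beside 0.14 in HSC3 and 0.02 in HSC4. UMPS, which makes uridine monophosphate, had 50.5 CPM in SAS HPLM and 62.7 CPM in SAS DMEM (−0.31), and CAD, which opens the pathway, had 39.3 CPM in SAS HPLM and 61.5 CPM in SAS DMEM (−0.64). Calcium and vitamin D genes were below 0 in 9 of 12, beside 61.1% of all genes, with a median of −0.34. Amino acid transporter genes had a median of −0.29 over 20, serine and one-carbon genes −0.09 over 16, and chaperone and unfolded protein response genes −0.08 over 27. ASS1, the arginine-making argininosuccinate synthase, had 44.1 CPM in SAS HPLM and 68.9 CPM in SAS DMEM (−0.64). Wnt and Notch genes had a median of −0.06 over 17, which became 0.01 with TMM scaling.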

How the data were processed

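RNA-seq was made from 3 oral cancer cell lines, each in HPLM and in DMEM, with 1 library per line and medium. Per the submitters' processing notes, FastQC and kallisto were used with hg38. For versions, annotation release and strand setting, the entry is: not given in the sources used here. The authors deposited estimated counts per transcript, scaled from TPM by the table's name and corrected for length, so no counting interval was made; a log2 ratio computed from these deposited counts carries no SE. The table held 161149 rows and 159837 transcripts. The 1312 repeated rows were counted once, 6878 transcripts without a symbol (0.375% of SAS HPLM and 0.376% of SAS DMEM) were left out, and 152959 were summed to 27852 symbols and scaled to CPM.

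Log2 ratios used 0.1 CPM added to each value, and genes were counted at a mean of 1 CPM or more in SAS. SAS was set against the mean of HSC3 and HSC4 with edgeR 4.0.16 in R 4.3.3 (counts rounded to whole numbers, filterByExpr with a count of 10 and total of 15, TMM, quasi-likelihood, Benjamini-Hochberg adjustment), on 13236 genes with the cell line as a term, which pairs the 2 libraries of a line. It left 1 residual degree of freedom. limma 3.58.1 and DESeq2 1.42.0 were alternatives, beside other pseudocounts, filters and scalings. The script was tested on simulated data.

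Named genes were the 12 highest and 12 lowest protein-coding ratios at a mean of 5 CPM or more, the 2 widest members of each of 42 lists, the 6 smallest p in each direction, up to 6 in each direction past 2-fold in SAS with the opposite sign in both other lines, and a set of genes fixed whatever their values. The p rule took protein-coding genes with a mean of 5 CPM or more over all 6 libraries. The members and lists were chosen with earlier results of these data known. Sequences came from RefSeq promoters of GRCh38.p14, and gene types from GENCODE 29.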

Additional observations from a re-analysis of the deposited data

How the results depend on the processing

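With 1 CPM added in place of 0.1, 178 genes were 2-fold higher in SAS HPLM and 120 lower; with no filter on low values 1403 and 1036; and at a mean of 5 CPM or more 90 and 60. TMM moved the median of all genes by 0.07, giving 364 higher and 205 lower. At a mean of 5 CPM or more, the medians of the ATF4 list (−0.07) and the ERK feedback list (−0.04) changed sign, and the medians of cytokines (0.70), keratinocyte differentiation (0.65), YAP and TGF-beta targets (0.03) and p53 targets (0.05) stayed above 0 but were smaller by over 1.5 times. For SAS against the other lines, DESeq2 called 5 genes and limma-voom 0, with 607 genes at an unadjusted p under 0.05. Without the replicate block, that is without the pairing of libraries by cell line, the test called 0 genes, with 76 at an unadjusted p under 0.05. Leaving out HSC3 or HSC4 leaves no residual degree of freedom, so those are values with no test. Low levels and the lack of replicate libraries both limit the ratios.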
